A study of Homo sapiens with 6 samples.

Results

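The data described here are the mRNA levels of 10 nuclear receptor genes, ESRRA, ESRRB, PPARA, PPARD, RARA, RXRA, RXRB, NR2F6, NR1H2 and NR2C1, in cells labelled as multiple myeloma cells, with and without knockdown of the RNA-binding protein IGF2BP1. They are 10 of the 48 human nuclear receptors in a table of 20030 genes. The 10 genes were selected on results of the same comparison, in which ESRRB and PPARD were much lower after the knockdown, so their differences between the groups are a description that no test supports. RNA-seq was performed on 6 libraries labelled H929, a name for NCI-H929, an established human multiple myeloma cell line. Lineage markers, given with their values after the sequences, went against this label in all 6 libraries. There were 3 libraries of cells with the knockdown (IGF2BP1-KD) and 3 of negative control cells (IGF2BP1-NC). The methods of the study describe stable lines made by lentiviral transduction of short hairpin RNAs, with puromycin selection, and which of its IGF2BP1 hairpins these libraries carry is not given in the sources used here. No label states whether the libraries of a group came from separate cultures, so a p-value measures only the spread between these libraries, which may be technical. IGF2BP1 is a reader of m6A, a methyl mark on adenosines of mRNA, and is known to stabilise the mRNAs it binds.

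Nuclear receptors are transcription factors with a DNA-binding domain of zinc fingers and a ligand-binding domain for small lipophilic molecules. The receptors for fatty acids (PPARA, PPARD), oxysterols (NR1H2, also called LXR beta) and retinoic acid (RARA) bind DNA as heterodimers with a retinoid X receptor (RXRA, RXRB). ESRRA and ESRRB, the estrogen-related receptors, have no established natural ligand. ESRRA is known as a regulator of mitochondrial genes and ESRRB as a factor of embryonic stem cells. NR2F6 and NR2C1 are orphan receptors that act mainly as repressors, and NR2C1 is known for the repression of embryonic and fetal globin genes. Nuclear receptor ligands are used in myeloma, where glucocorticoids act through the receptor NR3C1.

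Nuclear receptors can be grouped by the P-box, a short stretch at the end of the first zinc finger that contacts the DNA motif. For the receptors whose levels differed most, and the closest relative of each among the 10, 75 bases of the coding sequence are shown, starting at the codon of the first zinc finger cysteine (GRCh38, GENCODE release 44, mRNA strand, the 5 P-box codons in capitals). The ESRRA stretch lies at chr11:64307414-64307488 on the plus strand and the ESRRB stretch at chr14:76439660-76439734 on the plus strand, each within 1 coding exon. The PPARA and PPARD stretches, on the plus strands of chr22:46215268-46218271 and chr6:35420216-35421828, each cross an exon junction.
ESRRA: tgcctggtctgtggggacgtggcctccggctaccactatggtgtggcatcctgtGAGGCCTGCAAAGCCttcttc
ESRRB: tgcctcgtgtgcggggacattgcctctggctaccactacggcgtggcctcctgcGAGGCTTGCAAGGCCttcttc
PPARA: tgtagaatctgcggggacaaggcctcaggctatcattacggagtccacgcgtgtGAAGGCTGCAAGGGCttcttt
PPARD: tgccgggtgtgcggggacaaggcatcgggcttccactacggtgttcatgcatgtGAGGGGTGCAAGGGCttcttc
ESRRA and ESRRB were identical at 63 of the 75 bases (84.0%), and 2 bases of their P-box codons differed. PPARA and PPARD were identical at 58 bases (77.3%), as many as PPARD and NR1H2. Over all 45 pairs of the 10 genes the identity ranged from 58.7% to 84.0%, with a median of 72.0%. The longest run that any pair of the canonical mRNAs shared was 22 bases, and ESRRA and ESRRB shared at most 21. The cysteine pattern was found in 46 of the 48 receptors, which formed 9 groups by the residues that the P-box codons encode. PPARA, PPARD, RARA, RXRA, RXRB, NR1H2 and NR2C1 were 7 of the 28 receptors in the largest group. ESRRA and ESRRB shared a group with ESRRG alone, and NR2F6 a group with NR2F1 and NR2F2.

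The promoters of ESRRB and PPARD, which had the largest differences between the groups, are shown as RefSeq gives them (GRCh38.p14, plus strand), from 250 bases before to 50 bases after the start of transcription. GC boxes (GGGCGG, read on either strand, overlapping matches included) are in capitals. The ESRRB promoter is at chr14:76310527-76310826 and the PPARD promoter at chr6:35342308-35342607.
ESRRB: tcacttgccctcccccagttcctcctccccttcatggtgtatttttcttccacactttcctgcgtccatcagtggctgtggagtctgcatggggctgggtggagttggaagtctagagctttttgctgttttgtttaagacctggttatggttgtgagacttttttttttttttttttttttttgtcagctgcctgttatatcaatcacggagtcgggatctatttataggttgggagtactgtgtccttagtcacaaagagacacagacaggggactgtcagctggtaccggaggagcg
PPARD: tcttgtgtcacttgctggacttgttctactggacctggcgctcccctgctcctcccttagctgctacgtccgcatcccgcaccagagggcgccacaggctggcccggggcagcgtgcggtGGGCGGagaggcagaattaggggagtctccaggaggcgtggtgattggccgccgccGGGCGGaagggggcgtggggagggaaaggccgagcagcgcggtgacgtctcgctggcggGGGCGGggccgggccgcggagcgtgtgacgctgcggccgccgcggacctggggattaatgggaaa
The PPARD promoter held 3 GC boxes. None was found in any of the 3 ESRRB promoters listed, and the ESRRA promoter held 8. A GC box was present in 45.0% of all 35116 promoters of this length. It was present in 11 of the 16 promoters of the 9 genes with an entry, a set that lacks NR2F6. The receptor core motif AGGTCA, searched on both strands, was in 1 of these 16 promoters, belonging to RARA, and in 13.8% of all promoters. The ERR element TCAAGGTCA, which contains the core motif, was in 0 of the 16 and in 0.353% of all promoters. Such a match describes letters in this window and is not a bound site.

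The library totals lay between 16885449 and 18112179 counts, and a gene without a count could still hold 3 counts, or 0.166 to 0.178 CPM (counting error only). IGF2BP1 was at 48.1, 43.7 and 49.1 FPKM in IGF2BP1-NC and at 13.5, 12.9 and 12.8 FPKM in IGF2BP1-KD. It fell by 1.85 on the log2 scale (standard error 0.065), with a Benjamini-Hochberg adjusted p = 4.8e-08 from the quasi-likelihood test of edgeR. FPKM scale the counts by gene length and library size, so an order between genes depends on the 1 length used for each gene. In this test 1648 of 11994 genes were higher and 1738 lower in IGF2BP1-KD at an adjusted p under 0.05. The cells were checked against lineage markers. Of 12 plasma cell markers, 6 (TNFRSF17, IRF4, CD38, POU2AF1, FCRL5 and TNFRSF13B) had at most 3 counts in every library, whereas all 12 erythroid markers were above 1 FPKM in every library. HBE1, an embryonic globin, lay between 5519 and 6667 FPKM, and GATA1, an erythroid transcription factor, between 156 and 194 FPKM. The libraries thus carried erythroid transcripts and lacked defining plasma cell transcripts, in both groups. The summed plasma cell markers lay between 40.5 and 85.5 FPKM in IGF2BP1-NC and between 41.3 and 43.8 in IGF2BP1-KD, most of it from XBP1. Without XBP1 the sum was 1.99, 2.10 and 2.09 FPKM in IGF2BP1-NC and 2.79, 2.96 and 6.87 FPKM in IGF2BP1-KD, which did not overlap. SLAMF7 was the only plasma cell marker of the 5 tested with an adjusted p under 0.05, on 4, 5 and 4 counts against 52, 42 and 181. It met the count filter through IGF2BP1-KD alone, and the call was lost without IGF2BP1-NC library 1 (0.0579) or library 3 (0.0588). The summed erythroid markers lay between 7155 and 8211 FPKM in IGF2BP1-NC and between 7606 and 8344 in IGF2BP1-KD, most of it from HBE1, and between 1623 and 2053 and between 1603 and 1977 FPKM without HBE1. At an adjusted p under 0.05, 2 of the 12 erythroid markers were higher and 5 lower, and 3 of these 7 calls held with each library left out. The count was 4 without IGF2BP1-NC library 2 or 3 or without IGF2BP1-KD library 1 or 2. SLC4A1, the anion exchanger of red cells, rose by 2.50 on the log2 scale (adjusted p = 0.0011), from a mean of 2.20 to one of 12.6 FPKM, with the groups apart. The part of these markers in the receptor values was not tested. In bulk RNA, fewer cells of a type and less RNA per cell cannot be told apart.

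In IGF2BP1-NC cells the 10 receptors spanned a wide range of mRNA levels. By FPKM, NR2F6 was the highest of the 48 receptors with a mean of 48.8 ± 4.93 (SD, n = 3), followed by NR1H2 at 36.7 ± 1.82 and ESRRA at 29.1 ± 1.38. The libraries of these 3 genes did not overlap with each other. Their order rests on the lengths behind the FPKM, 1804, 2090 and 3205 bases, where the canonical mRNAs have 2383, 2416 and 2274. In mean counts ESRRA (1640) was above NR2F6 (1551) and NR1H2 (1352). RXRB came next at 16.1 ± 1.05 FPKM, and its libraries overlapped with those of NR2F2 (15.5 FPKM), a relative of NR2F6. PPARD (10.8 ± 1.86 FPKM) and RXRA (8.98 ± 0.703 FPKM) overlapped with each other in their libraries. Among the lower receptors, NR2C1 (6.53 ± 0.0925 FPKM) and RARA (5.10 ± 0.337 FPKM) each stood apart from the next in the order. Their order also rests on the lengths used, 4571 and 6340 bases, where the canonical mRNAs have 4058 and 3275. In mean counts RARA (570) was above NR2C1 (526). ESRRB followed at 3.90 ± 1.02 FPKM and overlapped with NR3C1 (3.68 FPKM). PPARA was the lowest of the 10 at 1.61 ± 0.202 FPKM. In all, 23 of the 48 receptors had a mean of at least 1 FPKM in IGF2BP1-NC. PPARG, the adipogenic PPAR, had at most 1 count in any library, and ESRRG had 0 counts in every library. The 10 receptors contributed between 69.3% and 73.4% of the summed FPKM of the 48 receptors in IGF2BP1-NC libraries and between 69.2% and 69.6% in IGF2BP1-KD libraries.

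**Figure D1:**
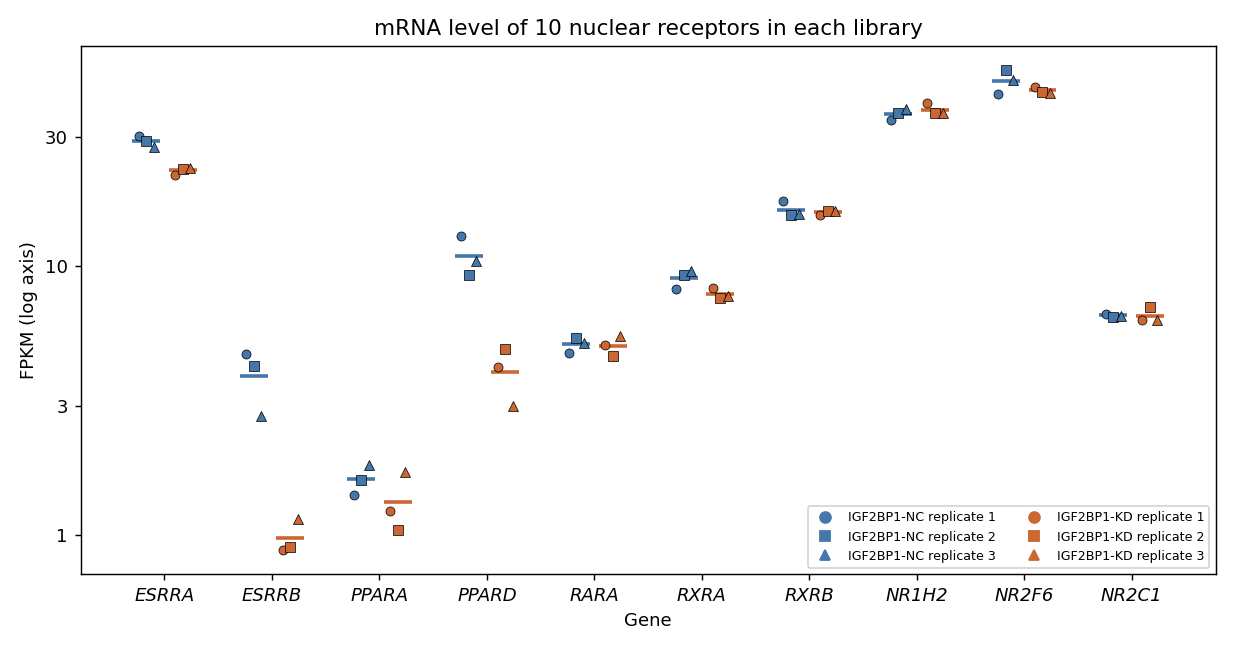
FPKM of the 10 receptors in each library, on a log axis (blue, IGF2BP1-NC; orange, IGF2BP1-KD; the symbol gives the replicate and the line the mean of 3 libraries). ESRRB, PPARD and ESRRA are the 3 genes whose IGF2BP1-KD libraries all lie below their IGF2BP1-NC libraries, ESRRB with means of 3.90 and 0.974 FPKM.

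ESRRB had the greatest difference between the groups. Its level was 4.70, 4.25 and 2.76 FPKM in the IGF2BP1-NC libraries and 0.874, 0.901 and 1.15 FPKM in the IGF2BP1-KD libraries. The counts behind these values were 567, 516 and 348 against 109, 106 and 139. Every IGF2BP1-KD library was below every IGF2BP1-NC library, and the third IGF2BP1-NC library was the lowest of its group. The log2 fold change was -2.01 (standard error 0.20), a level 4.03-fold higher in IGF2BP1-NC. It ranged from -2.20 to -1.87 when each library was left out in turn.

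PPARD, the widely expressed receptor for fatty acids, had the next largest difference. Its level was 12.9, 9.22 and 10.4 FPKM in IGF2BP1-NC and 4.19, 4.89 and 3.00 FPKM in IGF2BP1-KD. The counts were 1251, 903 and 1058 against 421, 464 and 294. The groups did not overlap, and IGF2BP1-NC library 1 and IGF2BP1-KD library 3 were the farthest apart. The log2 fold change was -1.44 (standard error 0.19), a level 2.70-fold higher in IGF2BP1-NC, and it ranged from -1.60 to -1.26 with 1 library left out.

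ESRRA, the mitochondrial regulator and closest relative of ESRRB among the 10, differed by much less. Its level was 30.5, 29.0 and 27.7 FPKM in IGF2BP1-NC and 21.8, 23.0 and 23.1 FPKM in IGF2BP1-KD. The groups were again apart, with a narrow spread within each. The log2 fold change was -0.37 (standard error 0.064), a level 1.29-fold higher in IGF2BP1-NC. On the opposite strand ESRRA overlaps TRMT112, whose log2 fold change was -0.05 (standard error 0.077, edgeR's adjusted p = 0.655) at means of 71.7 and 69.8 FPKM.

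ESRRB, PPARD and ESRRA were thus 3 of the 10 receptors with an adjusted p under 0.05 and a lower level, where 14.5% of all tested genes had one, and 0 of 10 were called higher, where 13.7% of all tested genes were. With 1 library left out the number called lower was 3 to 5, reaching 5 without IGF2BP1-NC library 1, and the number called higher was 0. PPARA, RXRA and NR2F6 each passed in at least 1 of these fits. The same 3 receptors had non-overlapping groups with IGF2BP1-KD below, which held for 22.2% of tested genes, and 0 had IGF2BP1-KD above, which held for 23.7%. Since this comparison chose the genes, nothing is read from these counts. The median log2 fold change of the 10 was -0.17, beside -0.0048 for all 11994 tested genes.

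The other 7 receptors overlapped between the groups. PPARA, the PPAR of liver and heart, was at 1.41, 1.60 and 1.81 FPKM in IGF2BP1-NC and at 1.23, 1.04 and 1.71 FPKM in IGF2BP1-KD. Its log2 fold change of -0.29 had a standard error of 0.18, and the third IGF2BP1-KD library lay within the control range. Leaving out 1 library moved it between -0.51 and -0.14.

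Both retinoid X receptors, the shared heterodimer partners, had between 869 and 1263 counts in every library. RXRA was at 8.19, 9.21 and 9.54 FPKM in IGF2BP1-NC and at 8.24, 7.57 and 7.71 FPKM in IGF2BP1-KD, a log2 fold change of -0.21 (standard error 0.081). The overlap came from the first library of each group, and the fold change ranged from -0.28 to -0.15 with 1 library left out. RXRB was at 17.3, 15.5 and 15.6 FPKM in IGF2BP1-NC and at 15.4, 16.0 and 16.0 FPKM in IGF2BP1-KD, a log2 fold change of -0.04 (standard error 0.070). RXRB overlaps SLC39A7 on the opposite strand, which had a log2 fold change of -0.15 (edgeR's adjusted p = 0.0621).

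RARA, the retinoic acid receptor alpha, was at 4.74, 5.40 and 5.16 FPKM in IGF2BP1-NC and at 5.06, 4.61 and 5.46 FPKM in IGF2BP1-KD, a log2 fold change of -0.03 (standard error 0.093). NR1H2, the oxysterol receptor, was at 34.7, 37.1 and 38.3 FPKM in IGF2BP1-NC and at 40.2, 37.1 and 37.0 FPKM in IGF2BP1-KD, a log2 fold change of 0.04 (standard error 0.072). The groups of both genes lay within each other's range in part, and the sign of each fold change turned in at least 1 fit with a library left out. NR2F6 was at 43.7, 53.5 and 49.2 FPKM in IGF2BP1-NC and at 46.2, 44.4 and 44.1 FPKM in IGF2BP1-KD, a log2 fold change of -0.13 (standard error 0.083). NR2C1 was at 6.63, 6.45 and 6.51 FPKM in IGF2BP1-NC and at 6.31, 7.01 and 6.27 FPKM in IGF2BP1-KD, a log2 fold change of -0.01 (standard error 0.081). The NR2F6 libraries of IGF2BP1-KD all fell within the wide control range, while the NR2C1 means of both groups were 6.53 FPKM.

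The balance between related receptors was taken as the ratio of their FPKM within each library. The FPKM ratio of ESRRA to ESRRB was 6.48, 6.82 and 10.1 in IGF2BP1-NC and 24.9, 25.5 and 20.1 in IGF2BP1-KD. The ratio of PPARD to PPARA was 9.14, 5.75 and 5.74 in IGF2BP1-NC and 3.41, 4.69 and 1.76 in IGF2BP1-KD. Neither ratio overlapped between the groups, but ESRRB and PPARD were selected on this same comparison, so nothing is read from it. By FPKM, PPARD remained the more abundant PPAR in every library. In IGF2BP1-KD library 3 this rests on the lengths used, as PPARA had 335 counts and PPARD 294. These lengths were 11243 bases for PPARA and 5619 for PPARD, where the canonical mRNAs have 10118 and 3734. The ratio of RXRB to RXRA ranged from 1.63 to 2.12 in IGF2BP1-NC and from 1.87 to 2.12 in IGF2BP1-KD, which overlapped. Of the summed FPKM of the 48 receptors, ESRRB gave 1.19% to 1.98% in IGF2BP1-NC and 0.407% to 0.547% in IGF2BP1-KD, and PPARD gave 3.96% to 5.41% and 1.44% to 2.31%. The summed FPKM of the 10 receptors was 165, 171 and 167 in IGF2BP1-NC and 149, 147 and 145 in IGF2BP1-KD.

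Ratios to relatives outside the 10 genes were computed in the same way. The ratio of RARA to RARG, another retinoic acid receptor, ranged from 1.94 to 2.53 in IGF2BP1-NC and from 3.24 to 3.81 in IGF2BP1-KD. That of NR1H2 to NR1H3 (LXR alpha) ranged from 16.5 to 17.6 and from 21.2 to 26.6. That of NR2F6 to NR2F2 ranged from 2.46 to 3.57 and from 4.80 to 5.65. All of these ratios were higher in every IGF2BP1-KD library, with the gene among the 10 overlapping between the groups and its relative lower in every IGF2BP1-KD library. Such a lower level without overlap held for 22.2% of all tested genes. The ratio of NR2C2 to NR2C1 ranged from 1.02 to 1.31 and from 1.19 to 1.51, which overlapped. For THRA and THRB, related receptors that are both outside the 10 genes, the ratio of THRA to THRB did not overlap between the groups. It ranged from 4.46 to 5.72 in IGF2BP1-NC and from 14.6 to 17.2 in IGF2BP1-KD.

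**Figure D2:**
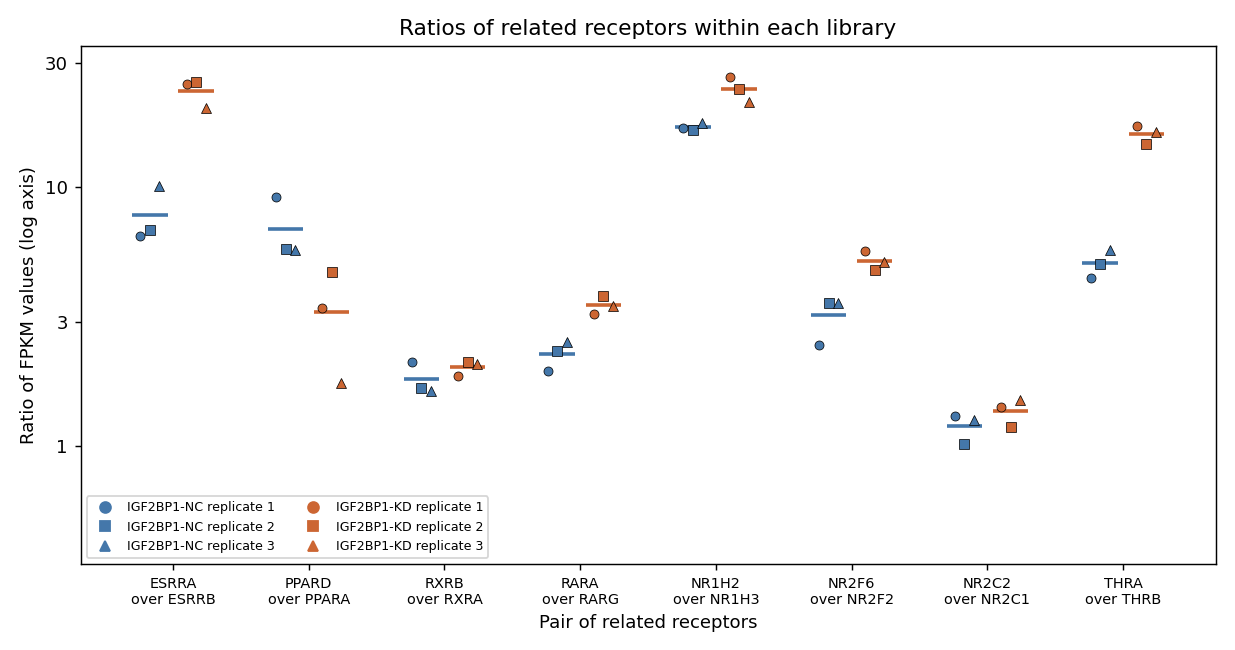
FPKM ratio of related receptors within each library, on a log axis (blue, IGF2BP1-NC; orange, IGF2BP1-KD; the line is the mean of 3 libraries). The ratio of ESRRA to ESRRB lies between 6.48 and 10.1 in IGF2BP1-NC and between 20.1 and 25.5 in IGF2BP1-KD, while the ratio of RXRB to RXRA overlaps between the groups.

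The 10 receptors stand beside 38 other nuclear receptors, of which 17 had enough counts to be tested and 21 had at most 11 counts in every library. At an adjusted p under 0.05 from the same edgeR test, 5 of the 17 fell and 4 rose, beside 14.5% and 13.7% of all tested genes. Of these 9 calls, 5 held with each library left out. THRB, a thyroid hormone receptor, fell by 1.07 on the log2 scale (standard error 0.12, edgeR's adjusted p = 0.0002), and its relative THRA rose by 0.60 (standard error 0.084, adjusted p = 0.0006), from 11.7 to 17.9 FPKM. THRA overlaps NR1D1 and MED24 on the opposite strand, and the strand setting of the counting is not given in the sources used here. NR1D1, a circadian repressor, rose by 0.47 (adjusted p = 0.0189), and this call was lost without the second IGF2BP1-NC library (0.0755) or the second IGF2BP1-KD library (0.0898). NR2F2 fell by 0.85 (adjusted p = 0.0001), from 15.5 to 8.67 FPKM, and NR6A1, an orphan receptor of germ cells, fell by 0.41 (adjusted p = 0.0015). NR4A1, an immediate-early gene, rose by 0.82 (adjusted p = 0.0111).

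For 3 further receptors the call depended on single libraries. RARG fell by 0.65 (edgeR's adjusted p = 0.0139), which was lost without the second IGF2BP1-NC library (0.0528) or the second IGF2BP1-KD library (0.063). NR5A2, a regulator of bile acid and steroid synthesis, fell by 1.81 (adjusted p = 0.0188) on 47, 16 and 23 counts in IGF2BP1-NC against 5, 12 and 7 in IGF2BP1-KD, so that it met the count filter through the control group alone. Its call was lost without the first IGF2BP1-NC library (0.0553), the first IGF2BP1-KD library (0.0763) or the third IGF2BP1-KD library (0.065). ESR2, estrogen receptor beta, rose by 1.06 (adjusted p = 0.0400) on 12 to 48 counts, and lost the call without the first (0.0594) or second (0.139) IGF2BP1-NC library and without the first (0.177) or second (0.0787) IGF2BP1-KD library. The log2 fold changes of the receptors at 1 FPKM or more that did not pass were -0.44 for NR1H3, 0.31 for NR1D2, 0.17 for NR2C2, 0.13 for NR4A2, -0.04 for NR3C1, -0.15 for PGR and -0.12 for VDR.

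**Figure D3:**
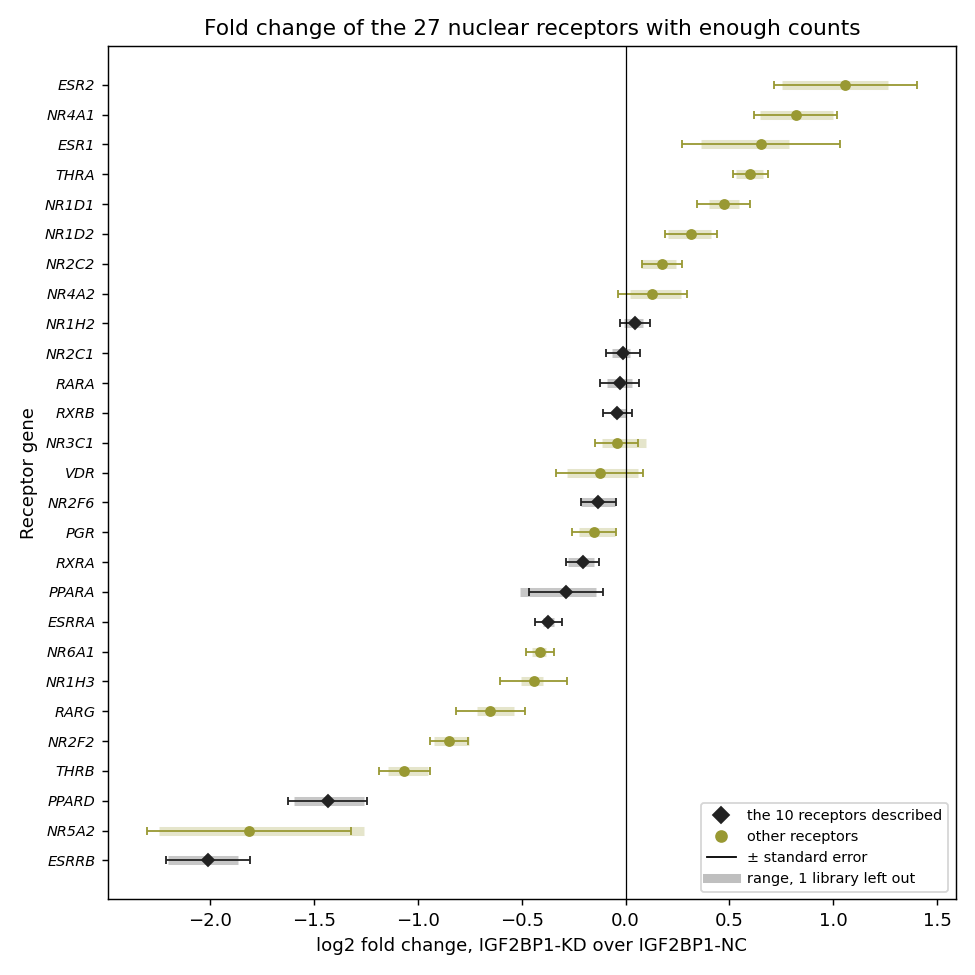
log2 fold change (IGF2BP1-KD over IGF2BP1-NC) of the 27 nuclear receptors with enough counts, with its standard error (thin line) and the range over the fits that leave out 1 of the 6 libraries (thick band). The 10 receptors described are black diamonds, from -2.01 for ESRRB to 0.04 for NR1H2, and the others are olive circles.

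Receptors act through coactivators and corepressors, of which a textbook list of 20 was examined and 19 were tested. This list and the target gene lists below were chosen with earlier results of these data known, so their calls are a description. At an adjusted p under 0.05, 5 fell and 2 rose, beside 14.5% and 13.7% of all tested genes. The tested coregulators had a median log2 fold change of 0.01. CARM1, an arginine methyltransferase that works with the NCOA coactivators, fell by 0.45 (edgeR's adjusted p = 0.0009). TBL1X and GPS2, subunits of the corepressor complex with NCOR1 and HDAC3, fell by 0.41 (adjusted p = 0.0104) and by 0.38 (adjusted p = 0.0076). CREBBP, a histone acetyltransferase, rose by 0.46 (adjusted p = 0.0031). The other 3 that passed were NCOA6 and SIN3A, which fell, and NCOA1, which rose. The calls of SIN3A and NCOA1 were each lost in 4 of the 6 fits with 1 library left out, in which their adjusted p reached 0.113 without the third IGF2BP1-NC library and 0.0808 without the second. PPARGC1A, the coactivator best known as a partner of ESRRA and the PPARs, had at most 2 counts in any library, while PPARGC1B had 982 to 1197 counts.

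Of 18 PPAR target genes of fatty acid oxidation and lipid storage, 12 were tested. Among them 4 fell and 2 rose, beside 14.5% and 13.7% of all tested genes. The tested targets had a median log2 fold change of -0.01. ACSL1, which activates long-chain fatty acids, fell by 0.47 (edgeR's adjusted p = 0.0240). CPT1A, the gate of fatty acid entry into mitochondria, fell by 0.32 (adjusted p = 0.0138). ECH1, an enoyl-CoA isomerase, rose by 0.45 (adjusted p = 0.0007), and ACADVL, an acyl-CoA dehydrogenase, rose by 0.36 (adjusted p = 0.0258). ECH1 alone of the 6 kept its call with each library left out, and the number called was 3 without IGF2BP1-NC library 2, 1 without IGF2BP1-KD library 2 and 2 without IGF2BP1-KD library 3. ACSL1 lost it without any 1 of the IGF2BP1-KD libraries (0.0552, 0.0641 and 0.089), CPT1A without the second IGF2BP1-KD library (0.0551), and ACADVL without the second IGF2BP1-NC (0.0564), the second IGF2BP1-KD (0.0598) or the third IGF2BP1-KD library (0.084). PDK4 and ANGPTL4, widely used reporters of PPARD activity, had too few counts to be tested, 1 to 15 and 4 to 8 per library.

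Of 15 targets of the oxysterol receptors, 10 were tested. Among them 4 fell and 1 rose, beside 14.5% and 13.7% of all tested genes. The tested targets had a median log2 fold change of -0.05. APOC1, an apolipoprotein, rose by 1.84 on the log2 scale (standard error 0.25, edgeR's adjusted p = 0.0052), from 27.1, 29.9 and 24.4 FPKM to 82.2, 76.6 and 135 FPKM. LPCAT3, a phospholipid-remodelling enzyme, fell by 0.90 (adjusted p = 0.0001), and SREBF1, the master regulator of fatty acid synthesis, fell by 0.43 (adjusted p = 0.0003). These 3 kept the call with any library left out, and 3 were called in all when IGF2BP1-NC library 3 was dropped, and likewise for library 2 or 3 of IGF2BP1-KD. FASN, the fatty acid synthase, fell by 0.34 (adjusted p = 0.0319) and lost the call in 4 of those 6 fits, with an adjusted p of up to 0.112 without the second IGF2BP1-NC library. The cholesterol exporters ABCA1 (4 to 15 counts) and ABCG1 (1 to 8 counts) were not tested.

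Of 18 genes of retinoid response and metabolism, 10 were tested. Among them 4 fell and 2 rose, beside 14.5% and 13.7% of all tested genes. The tested retinoid genes had a median log2 fold change of -0.09. TGM2, a transglutaminase induced by retinoic acid, fell by 0.70 (edgeR's adjusted p = 0.0001), and DHRS3, a retinaldehyde reductase, fell by 0.67 (adjusted p = 0.0060). RDH11, a retinol dehydrogenase, fell by 0.65 (adjusted p = 0.0006). These 3 kept the call with each library left out. CYP26A1, which degrades retinoic acid, fell by 1.27 (adjusted p = 0.0275) on 25, 39 and 26 counts against 9, 9 and 19, and met the count filter through the control group alone. Its call was lost without the second IGF2BP1-NC library (0.122), the first IGF2BP1-KD library (0.106) or the second IGF2BP1-KD library (0.103). RARRES3 rose by 1.40 (adjusted p = 0.0332) on 12, 20 and 15 counts against 28, 26 and 70. Without the third IGF2BP1-KD library its log2 fold change was 0.79 (adjusted p = 0.138), and it also lost the call without any 1 of the control libraries (0.0708, 0.0601 and 0.0911).

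Of 16 targets of the estrogen-related receptors, most of them mitochondrial, 14 were tested. Among them 1 fell and 1 rose, beside 14.5% and 13.7% of all tested genes. The tested targets had a median log2 fold change of -0.001. MDH2, malate dehydrogenase, fell by 0.32 (edgeR's adjusted p = 0.0085), and IDH3A, a subunit of isocitrate dehydrogenase, rose by 0.29 (adjusted p = 0.0077). Both kept the call with each library left out. Without IGF2BP1-NC library 1 the number called was 5, with COX5A (log2 fold change -0.28, adjusted p = 0.00265), MFN2 (-0.22, adjusted p = 0.0076) and VEGFA (0.44, adjusted p = 0.000201) added. VEGFA was at 57.0, 28.6 and 27.8 FPKM in IGF2BP1-NC and at 39.9, 39.3 and 37.1 FPKM in IGF2BP1-KD, a log2 fold change of 0.03 with a standard error of 0.32. Across the 14 genes and all 6 libraries the log2 fold changes ranged from -0.32 to 0.29, beside -2.01 for ESRRB and -0.37 for ESRRA. NRIP1 stands in both the coregulator and the retinoid list and PDK4 in both the PPAR and the estrogen-related receptor list.

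**Figure D4:**
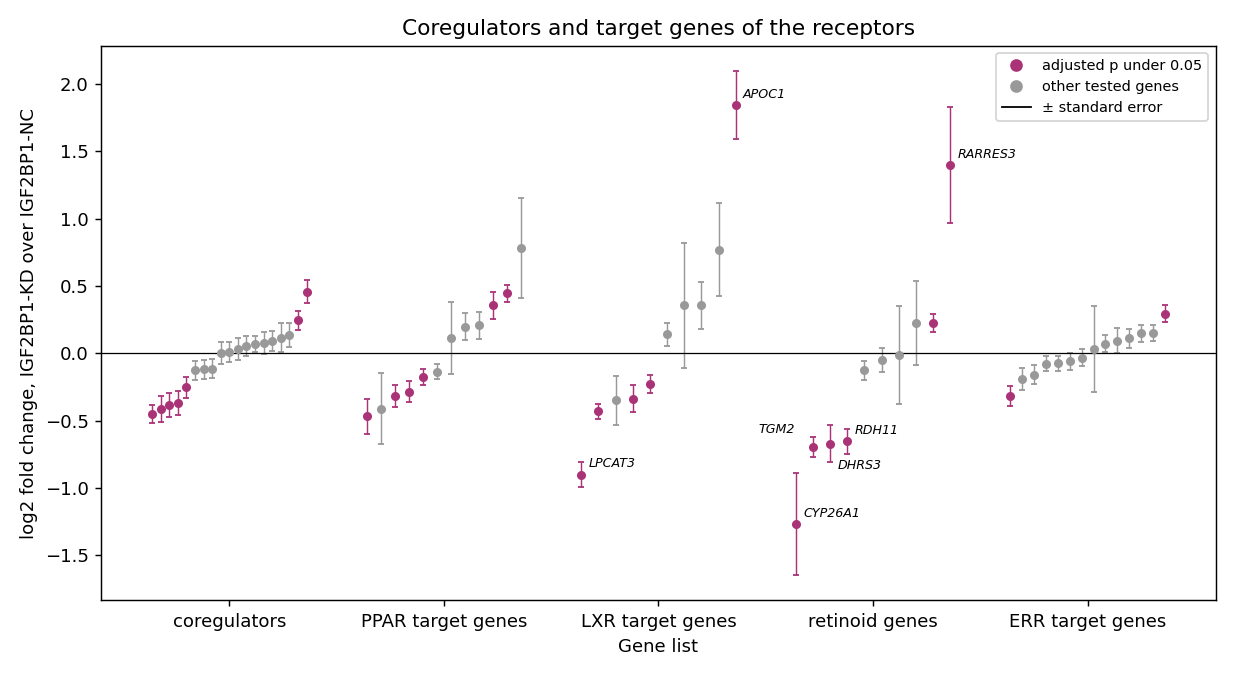
log2 fold change (IGF2BP1-KD over IGF2BP1-NC, ± standard error) of the tested genes of 5 lists, in order of value within each list. Genes with an adjusted p under 0.05 are purple and lie on both sides of 0 in every list, with 14 tested targets of the estrogen-related receptors between -0.32 and 0.29.

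The 10 mRNAs were also compared for features that played no part in their choice. Their canonical 3′ UTRs had a median of 1708.5 bases, beside 1018.5 bases for all 20020 canonical coding mRNAs. That larger set, also used for the motif below, includes genes with too few counts here, whereas all 10 receptors were tested. The sets are thus unlike. The 3′ UTR was 3379 bases for ESRRB, 2099 for PPARD and 777 for ESRRA. It ranged from 469 bases for NR2F6 to 8375 bases for PPARA. UGGAC, the core of a motif that IGF2BP1 is known to bind when methylated, occurred at a median of 1.68 matches per kilobase of mRNA in the 10 receptors and 1.16 in all mRNAs. ESRRB held 6 matches (1.20 per kilobase), PPARD 3 (0.803) and ESRRA 4 (1.76). RARA had the highest density, with 12 matches (3.66 per kilobase), and NR2C1 had 0 matches. Binding and methylation of these mRNAs were not analysed here. The study itself names NR2F6 among genes drawn from mRNAs with both an IGF2BP1 binding peak and an m6A peak in NCI-H929 cells. It picked those genes by their relation to overall survival in a group of myeloma patients. The lineage markers of the libraries described here went against the NCI-H929 label.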

How the data were processed

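Strand-specific mRNA libraries of 6 samples were grouped by their labels. The authors used Trimmomatic for trimming, HISAT2 for mapping (GRCh38) and HTSeq for counting. They deposited whole-number counts per gene and FPKM values, described as made with Cufflinks. The deposited FPKM were recovered from the counts with 1 length per gene and each library's total. Tool versions, the annotation release and the strand setting are not given in the sources used here.

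The test used edgeR 4.0.16 under R 4.3.3 (filterByExpr, TMM, robust glmQLFit, two-sided glmQLFTest), with Benjamini-Hochberg adjustment over 11994 tested genes, and 8036 genes were not tested. The script was tested on simulated data. Alternatives used DESeq2 1.42.0, limma 3.58.1 on counts or on log2(FPKM + 1), other factors and filters, the replicate number as a block, and each library left out. The receptors and gene lists were chosen with earlier results of these data known. Of the other receptors, those with an adjusted p under 0.05 or a mean of at least 1 FPKM are named, and of each list up to 4 genes with the largest changes; further genes that are named were chosen after their values were seen. Sequences came from GENCODE release 44 and RefSeq.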

Additional observations from a re-analysis of the deposited data

How the results depend on the processing

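ESRRB, PPARD and ESRRA stayed lower in IGF2BP1-KD under every setting run, with log2 fold changes from -2.20 to -1.29, from -1.60 to -1.24 and from -0.40 to -0.34. The ESRRB value of -1.29 came from limma on log2(FPKM + 1), where the added 1 shrinks the change of low genes. Over all genes, 3386 were called, and 2290 to 3991 with 1 library left out (1144 to 1929 higher, 1146 to 2062 lower). Leaving out 1 library gave 1 to 7 called PPAR targets, where all libraries gave 6, 3 to 6 oxysterol receptor targets, where all libraries gave 5, and 2 to 5 targets of the estrogen-related receptors, where all libraries gave 2. Upper-quartile factors gave 4 called targets of the estrogen-related receptors, and 1953 higher and 1523 lower genes. For the other receptors, the coregulators and the retinoid genes, the called counts were 6 to 10, 5 to 7 and 4 to 5 with 1 library left out. The replicate numbers did not pair the libraries: deviations of libraries with the same number correlated at -0.052, 0.036 and -0.106. With the replicate block 1413 genes were higher and 1500 lower. Of 1605 values of single genes under the alternatives, 1501 stayed on their side of the threshold or, for the 10 receptors, within the spread between libraries, 85 lost the call, 18 gained it, and 1, the ESRRB value above, moved by more than that spread. The sign turned in 47 of the 1605 values, in 23 of 109 genes, among them RARA, NR1H2, RXRB and NR2C1, and in 0 values of a gene called in the fit reported. The cause of the lost calls was not tested.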
